A study of Mus musculus with 10 samples.

Results

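The Gpr-named genes are the rows of the count table whose gene symbol is Gpr followed by a number, with or without a final a or b. They were 92 of the 23284 gene symbols counted, and the symbol alone chose them. RNA was measured in 3 endothelial populations of untreated C57BL/6 (B6) mice aged 6 to 8 weeks, with no gene altered in any group. LN-LEC (4 libraries) were lymphatic endothelial cells of pooled peripheral and mesenteric lymph nodes, LN-BEC (3 libraries) were blood endothelial cells of such nodes, and D-LEC (3 libraries) were lymphatic endothelial cells of the diaphragm. All were sorted as CD45-negative, CD31-positive cells and separated by PDPN (podoplanin), and each library is a pool of animals, so the spread between libraries describes pools and not single mice.

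Gpr symbols were given to G protein-coupled receptors, which cross the cell membrane 7 times, when their genes were found before their ligands. Adhesion receptors among them carry a long outer part that binds matrix or neighbouring cells and is cut near the membrane, while class A members bind small molecules, lipids, peptides or protons. In endothelium such receptors are known for sensing acid, complement and chemokines, for controlling permeability and for guiding vessel growth. Most adhesion receptors now carry Adgr symbols. Gpr97 is Adgrg3, Gpr56 is Adgrg1, Gpr116 is Adgrf5, Gpr126 is Adgrg6 and Gpr124 is Adgra2, and among class A members Gpr77 is C5ar2 and Gpr30 is Gper1.

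The libraries held 22429940 to 48906070 counted fragments. Pan-endothelial markers (Pecam1, Cdh5, Tek, Kdr, Erg) were high in all libraries, Prox1 averaged 8100 normalized counts in LN-LEC, 7946 in D-LEC and 224 in LN-BEC, and Nrp1 averaged 45628 in LN-BEC against 674 and 106. The summed skeletal muscle markers were 913 to 1285 normalized counts in D-LEC and 1.3 to 16.6 in the node libraries, and the summed mesothelial markers were 488 to 1537 against 9.5 to 92.8. Summed fibroblast and pericyte markers ran the other way, from 3401 to 7304 in the node libraries and 552 to 1779 in D-LEC, and the part of these cells in the differences from D-LEC was not tested. The genes of that last list were uneven. D-LEC means stood at 1.51% of the LN-BEC mean for Rgs5, 10.2% for Pdgfrb and 31.1% for Des. They stood at 44.1% for Pdgfra, 48.9% for Dpt and 86.9% for Col1a1. Summed leukocyte markers (Ptprc, Coro1a, Laptm5, Cd52) ran from 878 to 1202 in LN-BEC, 222 to 275 in LN-LEC and 23.1 to 71.9 in D-LEC. LN-BEC replicate 3 held the most lymphatic marker counts of its population, 7955 against 2891 and 4007. In bulk RNA of this kind, fewer cells of one type and less RNA per cell cannot be told apart.

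Levels between genes are compared here as FPKM, which is fragments per kilobase of exon, scaled to library size. Of the 92 genes, 31 averaged at least 1 FPKM in some population: 23 did so in LN-LEC, 29 did in LN-BEC, while D-LEC had 24. Together the 92 genes took 0.175 to 0.191% of the counts in LN-LEC, 0.112 to 0.116% in LN-BEC and 0.222 to 0.228% in D-LEC, and the shares of the 3 populations did not overlap. These sums rest largely on single genes and do not describe the group as a whole. In replicate 1 of each population, Gpr97 gave 31083 of 52605 such counts in D-LEC, Gpr77 gave 17607 of 39540 in LN-LEC, and Gpr116 gave 18956 of 42831 in LN-BEC. At the other end, 7 genes had no count in any library and 11, those 7 included, stayed under 3 counts in every library.

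**Figure D1:**
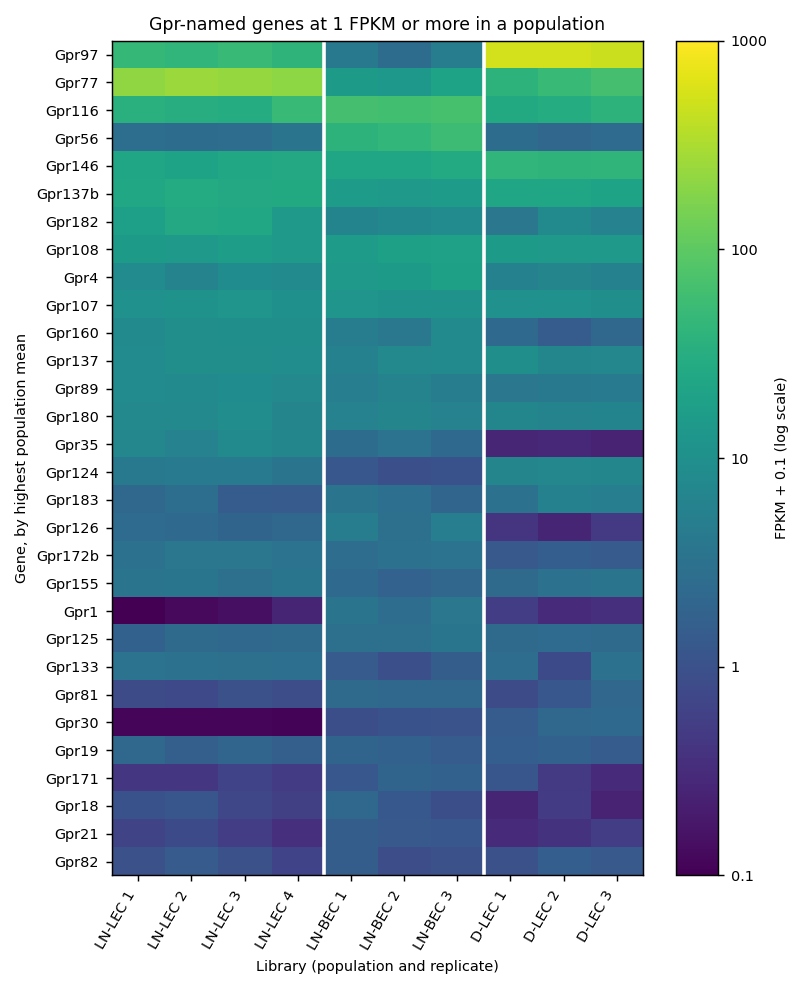
Heat map of FPKM (colour, log scale, 0.1 added) for 30 of the 31 Gpr-named genes that averaged at least 1 FPKM in some population, with 1 column per library and rows ordered by the highest population mean. Gpr97 is brightest in the 3 D-LEC libraries and Gpr77 in the 4 LN-LEC libraries, while Gpr137b, Gpr108 and Gpr107 have nearly the same colour in all 10.

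2 genes stood above the rest in level. Gpr97 averaged 516 ± 32.8 FPKM in D-LEC (SD, n = 3), 44.8 ± 4.19 in LN-LEC (n = 4) and 3.81 ± 1.21 in LN-BEC (n = 3). Gpr77 averaged 228 ± 20 FPKM in LN-LEC, 52.3 ± 14.3 in D-LEC and 16.3 ± 3.9 in LN-BEC. The next genes by their highest population mean were Gpr116, Gpr56 and Gpr146, at 65.1 ± 4, 45.6 ± 8.09 (both LN-BEC) and 41.5 ± 1.14 FPKM (D-LEC).

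Testing required a mean of 1 normalized count in some population, a level that 79 of the 92 reached, as did 15330 named genes of the table. The test was edgeR's quasi-likelihood F test, and a gene is said to be called when its Benjamini-Hochberg adjusted p over all tested genes was under 0.05. Between LN-LEC and D-LEC, 29 of the 79 were called (36.7%, where 45.8% of all tested genes were): 19 were higher in LN-LEC (24.1% of all genes were) and 10 in D-LEC (21.7%). For LN-LEC against LN-BEC, 36 were called (45.6% against 38.2% of all genes). Of the 79, 19 were higher in LN-LEC and 17 in LN-BEC, where 19.8% and 18.4% of all tested genes were. Between LN-BEC and D-LEC, 37 were called (46.8% against 48.1% of all genes). Of the 79, 26 were higher in LN-BEC and 11 in D-LEC, where 25.6% and 22.5% of all tested genes were.

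The median log2 fold change over the 79 was 0.22 for LN-LEC over D-LEC, -0.09 for LN-LEC over LN-BEC and 0.31 for LN-BEC over D-LEC, beside 0.03, -0.01 and 0.05 over all tested genes. An estimated fold of at least 5 was reached with a call by 12 of the 79 members between LN-LEC and D-LEC, by 17 of 79 between LN-LEC and LN-BEC and by 19 of 79 between LN-BEC and D-LEC. Of all 15330 tested genes, 1865 (12.2%), 1508 (9.84%) and 2335 (15.2%) did so in the same order. Over all 3 comparisons 49 of the 79 were called at least once (62%), as were 64.5% of all tested genes, and 30 were called in none. The share called at least once was close to that of the whole table. By mean level alone, called or not, 24 of the 79 were highest in LN-LEC, 33 in LN-BEC, while D-LEC had 22. The same count over all tested genes was not made, so these numbers show no lean of the group.

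**Figure D2:**
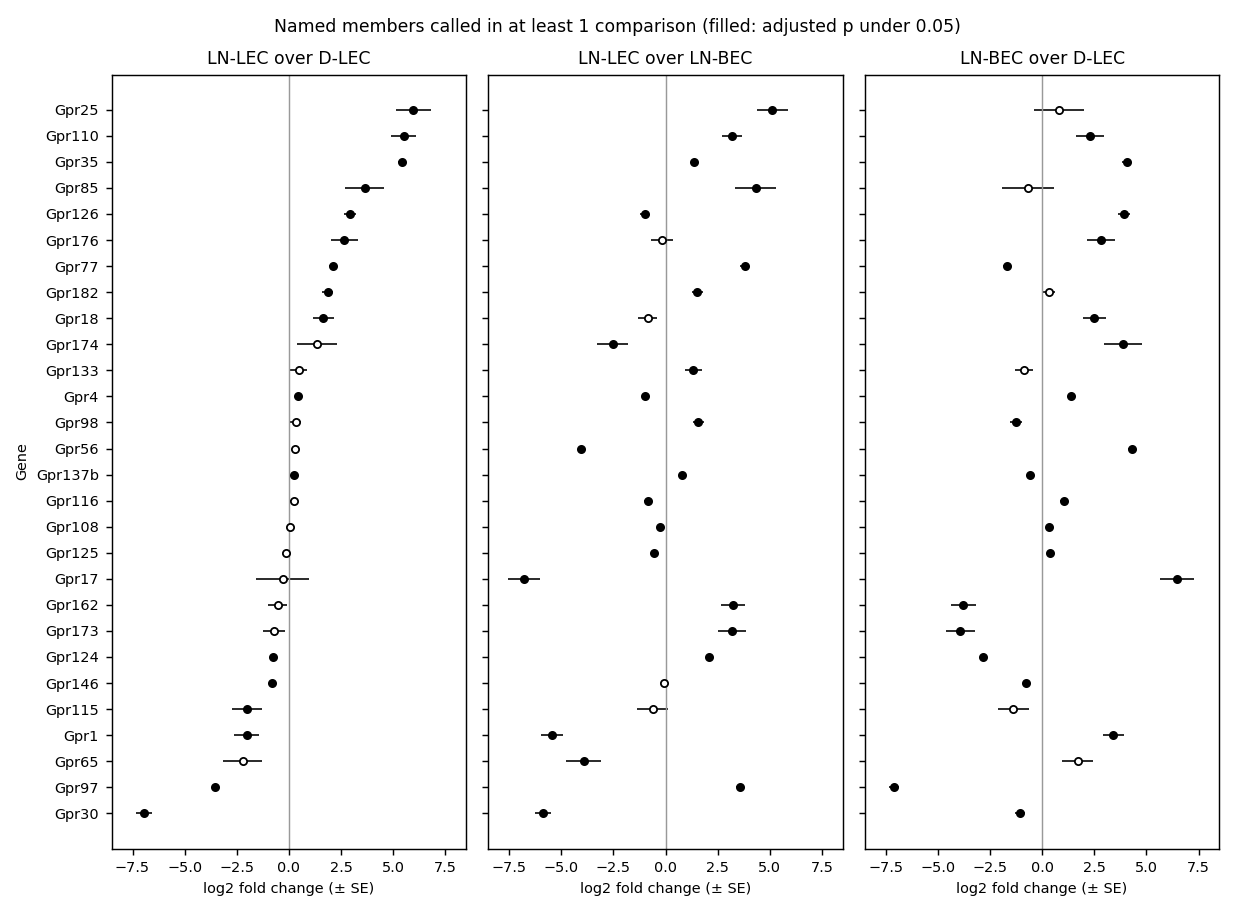
Log2 fold changes (x axes, ± SE from edgeR) of 28 Gpr-named genes that are described by name and were called in at least 1 comparison, in 3 panels for the 3 comparisons, where positive values mean higher in the first population. Filled points had an adjusted p under 0.05, and Gpr97 and Gpr30 lie at the far left of the first panel while Gpr25, Gpr110 and Gpr35 lie at its right end.

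Adhesion receptors were 16 of the 92, all of them tested. Of the 16, 5 were called between LN-LEC and D-LEC (2 higher in LN-LEC), 9 between LN-LEC and LN-BEC (5 higher in LN-LEC) and 9 between LN-BEC and D-LEC (6 higher in LN-BEC). These are 31.2, 56.2 and 56.2% of the group, beside 45.8, 38.2 and 48.1% of all tested genes. Their median log2 fold changes were 0.14, 0.08 and -0.42. Gpr97 and Gpr56, close relatives of subfamily G, had their highest levels in different populations.

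Gpr97, known from granulocytes and lymphatic endothelium, had 39206, 38978 and 34811 normalized counts (counts divided by library size factors) in D-LEC. It had 3292, 3124, 3584 and 2874 in LN-LEC and 295, 181 and 355 in LN-BEC. The 3 populations were fully apart, 11.5-fold between D-LEC and LN-LEC and 11.8-fold between LN-LEC and LN-BEC. The log2 fold change was -3.53 ± 0.18 (SE) for LN-LEC over D-LEC, 3.56 ± 0.20 for LN-LEC over LN-BEC and -7.09 ± 0.24 for LN-BEC over D-LEC (edgeR, adjusted p = 1e-08, 3.2e-08 and 2.5e-10). The LN-BEC mean was 0.735% of the D-LEC mean, and the lymphatic markers stood in LN-BEC at 0.089% (Reln), 0.982% (Pdpn), 1.02% (Lyve1), 2.77% (Prox1) and 2.85% (Flt4) of their own highest population mean. The part of lymphatic RNA in the LN-BEC value was not tested.

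Gpr56, known from cytotoxic lymphocytes and neural progenitors and as a receptor for collagen III and transglutaminase 2, had 4409, 5102 and 6253 normalized counts in LN-BEC. It had 305, 287, 297 and 378 in LN-LEC and 296, 228 and 281 in D-LEC. All LN-BEC libraries lay above all lymphatic libraries, and the 2 lymphatic populations overlapped. The log2 fold change was -4.03 ± 0.14 for LN-LEC over LN-BEC (edgeR, adjusted p = 1.4e-10) and 4.30 ± 0.16 for LN-BEC over D-LEC (adjusted p = 1.1e-10), while that for LN-LEC over D-LEC was 0.27 ± 0.14 (adjusted p = 0.14). The lymphatic means were 6.03% and 5.11% of the LN-BEC mean, where the 5 blood endothelial markers stood at 1.35 to 3.77% in LN-LEC and, in D-LEC, at 0.233% (Nrp1), 0.416% (Flt1), 2.59% (Vwf), 4.82% (Notch4) and 36.9% (Emcn). The part of blood endothelial RNA in the lymphatic values was not tested.

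Gpr56 and Gpr97 are neighbours. On mm9 chromosome 8, plus strand, Gpr56 (97501009 to 97538108) is followed by Gpr97 (97541592 to 97569149), with 3.48 kb between them.

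**Figure D3:**
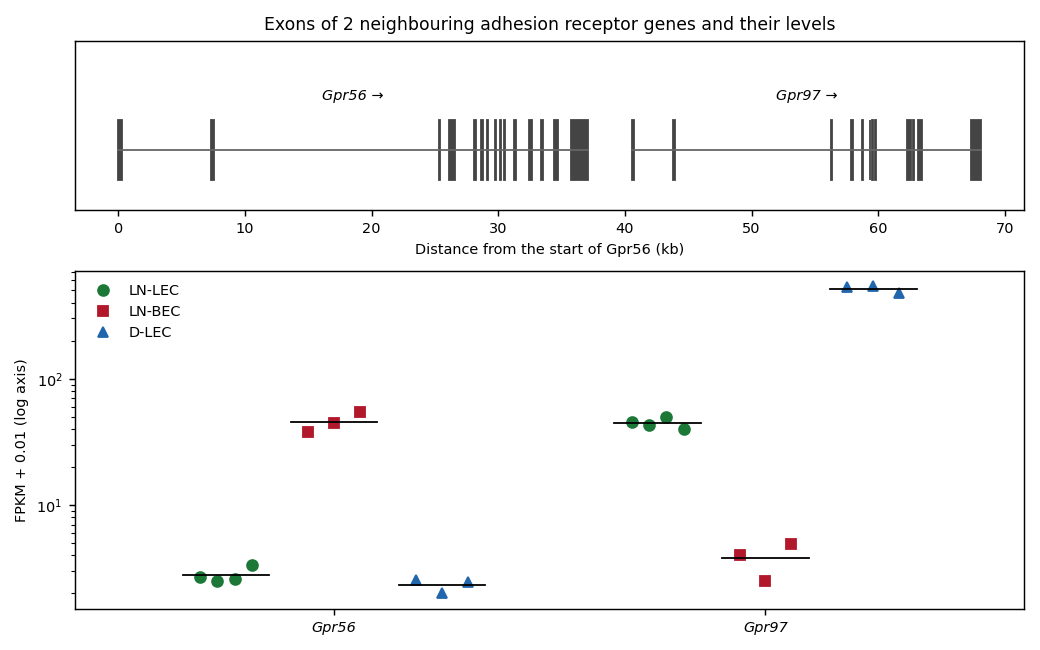
Upper panel: exons (bars) of Gpr56 and Gpr97 by distance from the start of Gpr56 in kb, all read from left to right. Lower panel: FPKM of each gene by library (log axis, 0.01 added, line for the population mean), where Gpr56 is highest in the 3 LN-BEC libraries and Gpr97 in the 3 D-LEC libraries.

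The sequences in front of these 2 starts are shown because the genes lie side by side and differ in level by population. They are the 200 bases before the most upstream annotated start in mm9, plus strand, with each CpG in capitals, at chr8:97500809-97501008 and chr8:97541392-97541591. Gpr126, an adhesion receptor of the same subfamily from chromosome 10, minus strand, chr10:14264843-14265042, is added as a member with a dense CpG stretch.
Gpr56: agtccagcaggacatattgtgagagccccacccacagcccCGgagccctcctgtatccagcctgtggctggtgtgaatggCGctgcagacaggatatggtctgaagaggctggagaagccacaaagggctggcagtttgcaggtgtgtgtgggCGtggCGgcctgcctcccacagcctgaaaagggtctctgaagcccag
Gpr97: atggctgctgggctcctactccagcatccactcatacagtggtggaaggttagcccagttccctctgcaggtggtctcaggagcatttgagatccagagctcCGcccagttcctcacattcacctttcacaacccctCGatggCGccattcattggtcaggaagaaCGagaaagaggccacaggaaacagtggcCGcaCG
Gpr126: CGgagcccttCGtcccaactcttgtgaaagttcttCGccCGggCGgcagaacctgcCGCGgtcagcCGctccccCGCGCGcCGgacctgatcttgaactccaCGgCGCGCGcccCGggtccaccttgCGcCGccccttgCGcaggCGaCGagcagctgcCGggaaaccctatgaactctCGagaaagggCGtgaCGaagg

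The 2 neighbours held 4 and 6 CpGs in these 200 bases and Gpr126 held 26. Over the window from 250 bases before to 50 after the start, the ratio of observed to expected CpG was 0.254 for Gpr56, 0.302 for Gpr97 and 1.08 for Gpr126, and the windows of all 3 were letter for letter those of RefSeq's promoter table. CpG-poor windows were the usual case among Gpr-named genes: 32 of 92 windows (34.8%) had a ratio over 0.6, beside 50.8% of 19445 named genes of the table. These windows follow the annotated starts, and not all were those of RefSeq's promoter table: Gpr1 and Gpr124, for example, differed. By level, 13 of the 31 members at 1 FPKM or more had such a window, 9 of the 28 between 0.1 and 1 FPKM, and 10 of the 33 below 0.1 FPKM. A TATAAA on either strand was in 14.1% of the member windows and 12.9% of all, and CCGGAAG in 3.26% and 11.8%.

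Other adhesion receptors with sizeable levels differed less. Gpr116, which in the lung restrains surfactant, had 8713, 7788, 7500.2 and 12790.5 normalized counts in LN-LEC, 16594, 15514 and 17608 in LN-BEC, with 6798, 7571 and 9714 in D-LEC. LN-BEC lay above both lymphatic populations, by a log2 difference of 0.83 (SE 0.18) over LN-LEC and 1.05 (SE 0.20) over D-LEC (edgeR, adjusted p = 0.0033 and 0.001), and the lymphatic populations overlapped (log2 fold change 0.22 ± 0.18, adjusted p = 0.37). LN-LEC replicate 4 was the highest of its group and lay apart from the other 3.

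Gpr126, known for starting myelination in Schwann cells, had 458, 429, 348 and 402 normalized counts in LN-LEC, 931, 564 and 993 in LN-BEC, with 58, 30.1 and 73.5 in D-LEC. The populations did not overlap, and the node populations were 7.63-fold (LN-LEC) and 15.3-fold (LN-BEC) above D-LEC (log2 fold changes 2.93 ± 0.29 and 3.93 ± 0.30, edgeR adjusted p = 6.1e-06 and 5.8e-07). LN-BEC also exceeded LN-LEC (adjusted p = 0.0049).

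Gpr124, which with the anchored protein Reck lets brain endothelium sense WNT7, had the reverse order. It had 1082, 1133 and 1133 normalized counts in D-LEC, 653, 722, 701 and 540.0 in LN-LEC, and 184, 139 and 151 in LN-BEC, with no overlap between populations. The log2 fold change was -0.75 ± 0.12 for LN-LEC over D-LEC and 2.06 ± 0.13 for LN-LEC over LN-BEC (edgeR, adjusted p = 0.00013 and 2.8e-08). Reck was also lowest in LN-BEC, with 179, 119 and 163 normalized counts against 717 to 829 in LN-LEC and 259.5 to 338 in D-LEC. Wnt7a and Wnt7b averaged under 5 normalized counts in every population.

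Gpr110, Gpr111, Gpr115 and Gpr116 all lie on chromosome 17. Gpr110 (mm9, 43407296 to 43461355) ends 65.1 kb before Gpr116 begins, on the same strand, and had 120.5, 83.8, 83.7 and 101 normalized counts in LN-LEC, 14, 10.4 and 7.35 in LN-BEC, and 5.04, 2 and 0 in D-LEC. It was called in all 3 comparisons (log2 fold change 3.19 ± 0.47 for LN-LEC over LN-BEC and 5.49 ± 0.59 over D-LEC, edgeR adjusted p = 8.8e-05 and 4.1e-06), and that between LN-BEC and D-LEC was lost when only those 6 libraries were fitted (adjusted p = 0.085). Gpr115 and Gpr111 stayed at or below 18.2 normalized counts in every library, and the call of Gpr115 between the lymphatic populations (log2 fold change of LN-LEC over D-LEC -2.00 ± 0.71, adjusted p = 0.033) was lost without D-LEC replicate 3 (adjusted p = 0.14) and without LN-LEC replicate 1, 2 or 3 or D-LEC replicate 1 (0.054 to 0.08).

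Among the remaining adhesion receptors, Gpr133 was at 494, 458, 432 and 424 normalized counts in LN-LEC, 199, 129 and 215 in LN-BEC, with 405, 108 and 479 in D-LEC. D-LEC replicate 2 lay below every LN-BEC library while the other D-LEC libraries lay above them. Replicate 2 was also lowest of its group in summed mesothelial markers (488 against 1287 and 1537). The same held for fibroblast and pericyte markers (552 against 1779 and 883), but not for skeletal muscle markers (1152 against 913 and 1285). The part of such cells in the Gpr133 value of that library was not tested. The log2 fold change of LN-BEC over D-LEC was -0.87 ± 0.45 (edgeR, adjusted p = 0.15) with that library and -1.29 (adjusted p = 0.00011) without it, and the call between LN-LEC and LN-BEC (1.34 ± 0.43, adjusted p = 0.036) was lost in 8 of the 10 fits that left out 1 library (adjusted p up to 0.12). Of the node populations, LN-BEC had more Gpr125 and LN-LEC more Gpr98 (log2 fold changes of LN-LEC over LN-BEC -0.56 ± 0.13 and 1.58 ± 0.27, edgeR adjusted p = 0.0041 and 0.0003). Gpr64, Gpr111, Gpr123 and Gpr128 were called in none of the comparisons, and the last 3 averaged under 0.1 FPKM in all populations.

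The 13 adhesion receptors that carry other names gave 8, 8 and 6 calls in the 3 comparisons, in the order used above (61.5, 61.5 and 46.2%, beside 45.8, 38.2 and 48.1% of all genes). Lphn2 and Eltd1 were higher in LN-BEC, at 6666 to 7204 and 11644 to 13171 normalized counts, than in any lymphatic library (1002 to 1775 and 1553 to 2432). Celsr1, which orients cells within an epithelial or endothelial sheet, was highest in LN-LEC, at 2035 to 2206 normalized counts. It had 1475 to 1713 in D-LEC and 638 to 962 in LN-BEC.

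**Figure D4:**
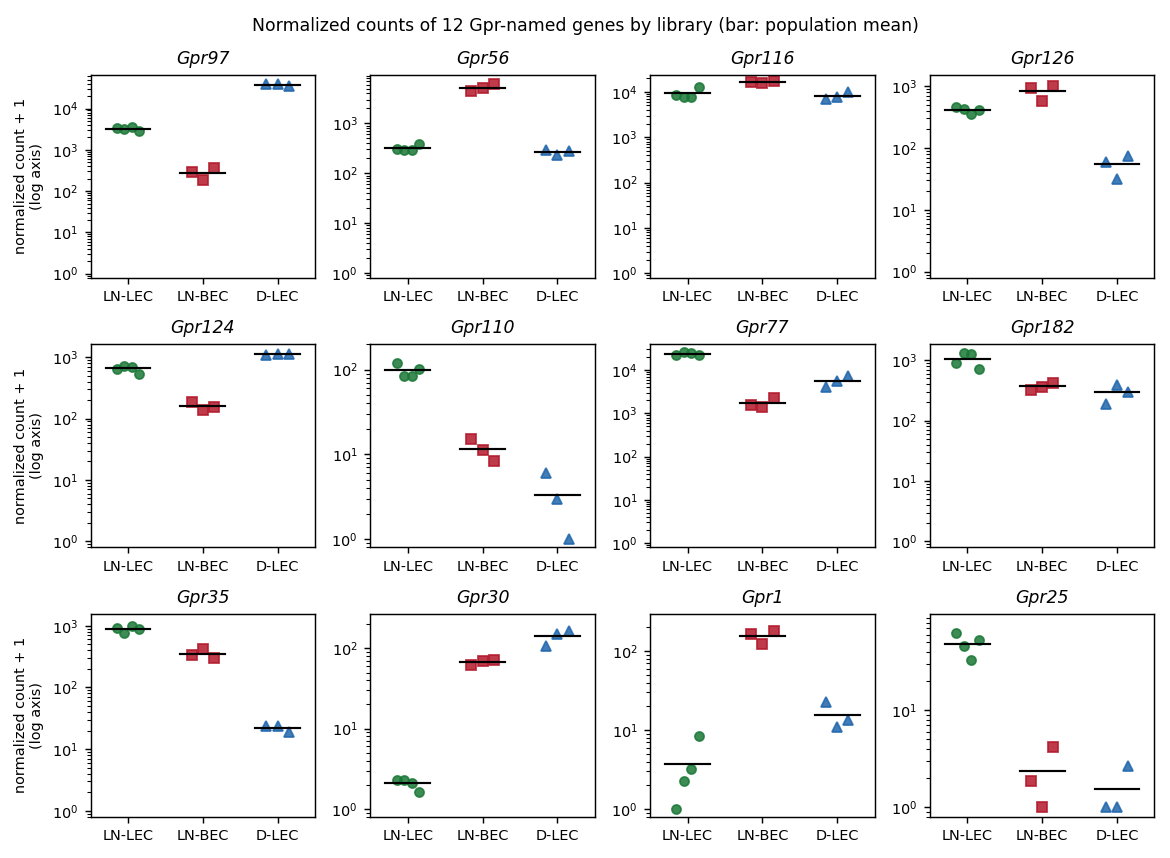
Normalized counts (log axes, 1 added) of 12 Gpr-named genes, with 1 point per library and a bar at the population mean for LN-LEC (circles, n = 4), LN-BEC (squares, n = 3) and D-LEC (triangles, n = 3). Gpr97, Gpr124 and Gpr30 are highest in D-LEC, Gpr77, Gpr182, Gpr35, Gpr110 and Gpr25 in LN-LEC, and Gpr56, Gpr116, Gpr126 and Gpr1 in LN-BEC.

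Receptors for chemoattractants, peptides and proteins numbered 8, of which 6 were tested. All 6 were called between LN-LEC and LN-BEC, 3 in each direction, and 4 (66.7%) were called in each of the other comparisons, where 38.2% of all tested genes were called in the first, 45.8% between LN-LEC and D-LEC and 48.1% between LN-BEC and D-LEC. Gpr77, a second receptor for the complement fragment C5a that couples poorly to G proteins, had 22823, 26526, 24724 and 21727 normalized counts in LN-LEC, 4131, 5446 and 7121 in D-LEC, and 1588, 1415 and 2206 in LN-BEC. No libraries of different populations overlapped. LN-LEC exceeded D-LEC 4.36-fold and LN-BEC 13.9-fold (log2 fold changes 2.12 ± 0.20 and 3.80 ± 0.22, edgeR adjusted p = 5.6e-06 and 9.6e-08).

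Gpr182, a chemokine-scavenging receptor of sinusoidal and lymphatic endothelium, had 912, 1289.8, 1257 and 715 normalized counts in LN-LEC, 318, 365 and 419 in LN-BEC, with 189, 388 and 299 in D-LEC. LN-LEC lay above both other populations (log2 fold changes 1.85 ± 0.27 over D-LEC and 1.52 ± 0.27 over LN-BEC, edgeR adjusted p = 0.0003 and 0.0011), and those overlapped (0.33 ± 0.29 for LN-BEC over D-LEC, adjusted p = 0.38).

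Gpr1 and Gpr25 each had 1 population well above the others. Gpr1, which binds chemerin, had 162, 124 and 177 normalized counts in LN-BEC, 21.4, 10 and 12.4 in D-LEC, with 0, 1.27, 2.26 and 7.54 in LN-LEC. LN-BEC exceeded LN-LEC (log2 fold change of LN-LEC over LN-BEC -5.44 ± 0.54, edgeR adjusted p = 2.3e-06) and D-LEC (3.42 ± 0.52, adjusted p = 9.9e-05), and the call between the lymphatic populations was lost without D-LEC replicate 1 (adjusted p = 0.059). Rarres2, the chemerin gene, was higher in D-LEC than in LN-LEC (log2 fold change of LN-LEC over D-LEC -1.63 ± 0.36, adjusted p = 0.0042).

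Gpr25 had 60.9, 44.4, 31.7 and 52.2 normalized counts in LN-LEC, 0.875, 0 and 3.15 in LN-BEC, and 0, 0 and 1.65 in D-LEC. The counts summed to 193 over the LN-LEC libraries, 4 over LN-BEC and 2 over D-LEC. The ratio of these sums, scaled to summed library sizes, was 39.3 to LN-BEC (95% exact counting interval 15.1 to 146) and 72.8 to D-LEC (19.9 to 605). These intervals cover counting error only. Both comparisons were called (edgeR, adjusted p = 8.5e-05 and 4.7e-05).

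Of the receptors with a lipid or metabolite ligand, 11 were in the table and tested, with 6, 5 and 5 called in the 3 comparisons (54.5, 45.5 and 45.5%, beside 45.8, 38.2 and 48.1% of all genes). Gpr35, a receptor for kynurenic acid and other metabolites, had 915, 750.3, 995 and 889.5 normalized counts in LN-LEC, 329, 426 and 295 in LN-BEC, with 22.7, 23 and 18.2 in D-LEC. The libraries of the 3 populations were apart, and the node populations exceeded D-LEC 42.4-fold and 16.6-fold (log2 fold changes 5.41 ± 0.19 and 4.05 ± 0.20, edgeR adjusted p = 8.6e-11 and 1.2e-09).

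Gpr30, a membrane receptor for oestrogen, was counted 4 times in all in LN-LEC, once per library, and had 61.3, 69.2 and 70.4 normalized counts in LN-BEC and 105, 151 and 164 in D-LEC. Its ratio of summed counts to LN-LEC, scaled in the same way, was 144 in D-LEC (95% exact counting interval 55.6 to 529) and 66.6 in LN-BEC (25.6 to 247). The edgeR test gave adjusted p = 3.5e-09 and 3e-08. D-LEC was above LN-BEC (log2 fold change of LN-BEC over D-LEC -1.06 ± 0.26, adjusted p = 0.0043). Its neighbour Gpr146, which ends 26.8 kb upstream on chromosome 5, did not share this gap: it had 2627 to 3227 normalized counts in LN-LEC, 2888 to 3518 in LN-BEC, with 5079 to 5463 in D-LEC. Gpr146, which is linked to cholesterol levels, was higher in D-LEC than in LN-LEC (log2 fold change -0.81 ± 0.09, edgeR adjusted p = 7.9e-06), and the node populations overlapped (-0.06 ± 0.09, adjusted p = 0.65).

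Gpr183, chosen after its values were seen, is the oxysterol receptor that positions lymphocytes and dendritic cells in lymphoid tissue. It had 281, 489.9 and 435 normalized counts in D-LEC, 294, 244 and 170.2 in LN-BEC, and 182, 229.8, 116 and 112 in LN-LEC, and D-LEC exceeded LN-LEC (log2 fold change of LN-LEC over D-LEC -1.33 ± 0.29, edgeR adjusted p = 0.0025). The enzymes that make and degrade its ligand had their own orders. Ch25h, which adds the first hydroxyl group, was at 1319 to 1830 normalized counts in LN-BEC, 826 to 1205 in D-LEC and 53.1 to 117 in LN-LEC. Cyp7b1, which completes the ligand, was highest in LN-LEC at 553 to 628, and Hsd3b7, which degrades it, was highest in D-LEC at 10653.5 to 13570.5.

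Gpr119, a lipid-amide receptor named after its values were seen, was at 6.48 to 15.2 normalized counts in LN-LEC and at 0 in all LN-BEC libraries, so LN-LEC was at least 3.98-fold higher against 3 counts per library. It was counted once in D-LEC.

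The 15 ligand, enzyme and partner genes listed for the members gave 10, 9 and 8 calls (66.7, 60 and 53.3%, beside 45.8, 38.2 and 48.1% of all genes). Ptgds, which makes prostaglandin D2, was at 1503 to 1973 normalized counts in LN-BEC and at 11.3 to 45.4 in the lymphatic libraries, while Gpr44, a receptor for that prostaglandin, stayed at or below 5.19 in every library and shares 39% of its exon bases with Ccdc86. Tgm2, a ligand of Gpr56, was highest in LN-LEC (41967 to 53906). Of 16 G protein alpha subunits, 7, 7 and 11 were called (43.8, 43.8 and 68.8%), and of 7 arrestins and receptor kinases 4, 5 and 6 were (57.1, 71.4 and 85.7%). Gnaz was 22.9 to 43.8 in the lymphatic libraries and 0.865 to 4.2 in LN-BEC, Adrbk2 was 241 to 392 in the node libraries and 50.5 to 78.1 in D-LEC, and Arrb2 was 2379 to 2932 in LN-LEC and 552 to 1113 elsewhere.

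Among the proton-sensing receptors, Gpr4, Gpr65 and Gpr132 had their highest mean in LN-BEC. Gpr4, the endothelial acid sensor, had 1208, 1302 and 1579.7 normalized counts in LN-BEC, 714, 526, 748 and 696 in LN-LEC, and 491, 566 and 486 in D-LEC. LN-BEC was apart from the lymphatic populations (2.01-fold above LN-LEC, edgeR adjusted p = 2.8e-05), which overlapped, and the call between those (log2 fold change 0.41 ± 0.14 for LN-LEC over D-LEC, adjusted p = 0.025) was lost without any 1 of 4 libraries (adjusted p up to 0.085).

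Gpr65 and Gpr132, which are known from leukocytes, stayed at or below 14 normalized counts. Gpr65 was called between LN-LEC and LN-BEC (adjusted p = 0.002), on 3 counts in LN-LEC and 40 in LN-BEC, a ratio of 16.4 (95% exact counting interval 5.21 to 82.7).

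Receptors best known from leukocytes were looked at beside leukocyte markers, since the sort removed CD45-positive cells. Gpr18 had 84.9, 45 and 31.5 normalized counts in LN-BEC, 35, 41.9, 23.8 and 18.2 in LN-LEC, and 6.31, 16 and 5.78 in D-LEC, and it was called only against D-LEC (log2 fold changes 1.65 ± 0.52 for LN-LEC and 2.51 ± 0.54 for LN-BEC, edgeR adjusted p = 0.019 and 0.0016). The first of these was lost without LN-LEC replicate 2 or D-LEC replicate 1 or 3 (adjusted p = 0.052, 0.066 and 0.08). Gpr174 was at 30.6, 35.5 and 11.6 in LN-BEC and at or below 6.48 elsewhere (ratio of LN-BEC to D-LEC 16.1, 95% exact counting interval 6.65 to 50.9, edgeR adjusted p = 0.0034). Gpr171, named after its values were seen, was at 75.3, 123 and 109 in LN-BEC, 21.6 to 35.1 in LN-LEC, and 73.2, 25.1 and 13.2 in D-LEC.

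The leukocyte gene Ptprc had 321, 324 and 208 normalized counts in LN-BEC, 33.7 to 50.8 in LN-LEC and 9.09 to 21.4 in D-LEC, and LN-BEC replicate 3 was the lowest LN-BEC library for Ptprc, Cd3e, Gpr18, Gpr174 and Gpr65, but not for Laptm5 and Gpr171, which were lowest in replicate 1, or Gpr132, which was highest in replicate 3. D-LEC replicate 1, highest of its group for Gpr171, was also the only D-LEC library with more than 1 normalized count of Cd3e (18.9). LN-LEC means stood at 14.1% of LN-BEC for Ptprc, 16.6% for Cd52, 25.4% for Laptm5, 41.4% for Coro1a and 9.78% for Cd3e. For the receptors they stood at 3.9% (Gpr65), 16.6% (Gpr174), 23% (Gpr132), 25.6% (Gpr171) and 55.2% (Gpr18). The summed T cell list ran from 392 to 655 in LN-BEC, 275 to 288 in LN-LEC and 1743 to 2322 in D-LEC, where Cd2 alone averaged 1807 and Cd3d, Cd3e and Cd3g averaged 1.12 to 6.58. The summed B cell list ran from 934 to 1400, 710.1 to 1475 and 140.0 to 169, with Pax5 at 0 in every lymphatic library. The part of leukocyte RNA in these receptor values was not tested.

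**Figure D5:**
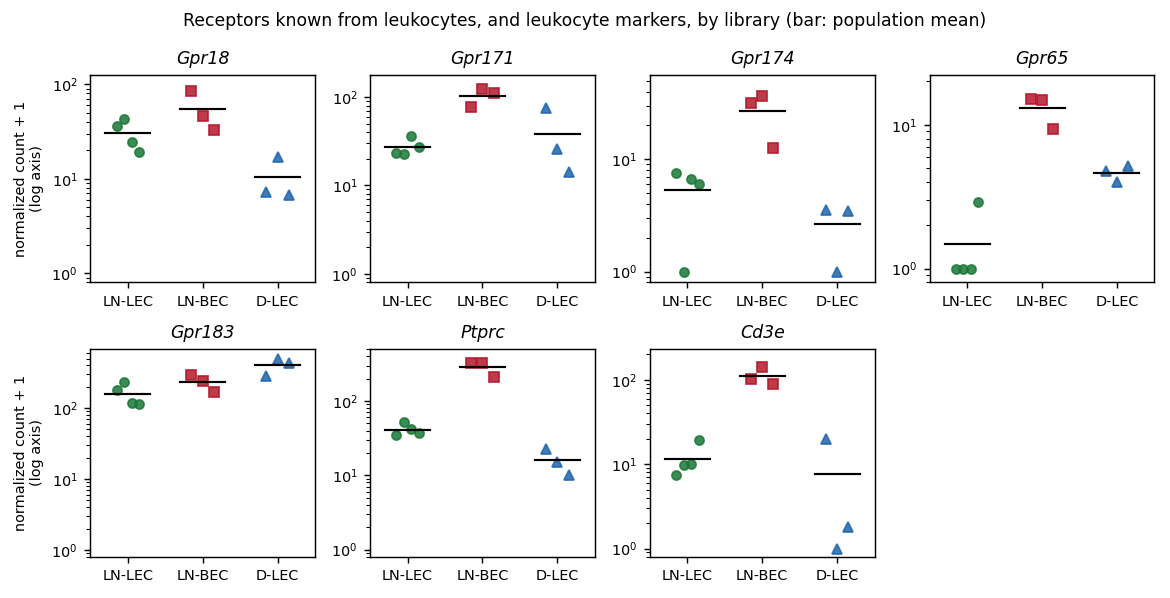
Normalized counts (log axes, 1 added) of Gpr18, Gpr171, Gpr174, Gpr65 and Gpr183 beside the leukocyte genes Ptprc and Cd3e, with 1 point per library and a bar at the population mean. Gpr18, Gpr171, Gpr174, Gpr65 and both markers have their highest mean in LN-BEC, while Gpr183 is highest in D-LEC.

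Among class A orphans and other members placed in no group above or below, Gpr172b included, 29 of 36 were tested. Of these, 9, 5 and 12 were called (31, 17.2 and 41.4%, beside 45.8, 38.2 and 48.1% of all genes). Gpr17, known from oligodendrocyte precursors, had 46.4, 32.9 and 41 normalized counts in LN-BEC and was counted once in LN-LEC and once in D-LEC. Its ratio of summed counts, scaled to summed library sizes, was 160 to LN-LEC (95% exact counting interval 28.1 to 6350) and 120 to D-LEC (21.2 to 4790). Its edgeR folds were 110 and 89.5 (adjusted p = 6e-06 and 1.6e-05). Of its exon bases, 3.62% are shared with Lims2.

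Gpr162 and the SREB receptor Gpr173, brain-enriched receptors, were low in LN-BEC and present in both lymphatic populations. Gpr162 had 45.4, 38.1, 20.4 and 14.5 normalized counts in LN-LEC, 2.63, 5.19 and 1.05 in LN-BEC, and 44.2, 37.1 and 47.9 in D-LEC. Gpr173 had 27.2, 21.6, 33.9 and 13.8, then 0, 2.59 and 5.25, then 31.5, 33.1 and 54.5. LN-LEC exceeded LN-BEC in both (log2 fold changes 3.22 ± 0.58 and 3.20 ± 0.68, edgeR adjusted p = 0.0005 and 0.0019). Gpr85, the other SREB receptor tested, was found in LN-LEC (13, 27.9, 27.1 and 16.3) and at or below 3.31 elsewhere, a ratio to LN-BEC of 22.3 (95% exact counting interval 7.36 to 110).

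Gpr176 was above D-LEC in both node populations, with uneven libraries. It had 36.3, 35.6, 23.8 and 36.5 normalized counts in LN-LEC, 56, 9.51 and 48.3 in LN-BEC, and 10.1, 5.01 and 1.65 in D-LEC (log2 fold changes over D-LEC 2.65 ± 0.66 and 2.82 ± 0.68, edgeR adjusted p = 0.005 and 0.0038).

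Gpr160, Gpr172b and Gpr89, named after their values were seen, were broadly present and lowest in D-LEC. Gpr160 had 521 to 633 normalized counts in LN-LEC, 256 to 532 in LN-BEC, with 89.2 to 148 in D-LEC (log2 fold change of LN-LEC over D-LEC 2.30 ± 0.25, edgeR adjusted p = 1.1e-05). Gpr172b, now Slc52a2 and a riboflavin transporter, had 239 to 301, 212 to 263 and 97.1 to 117 (1.37 ± 0.16, adjusted p = 8.3e-06). Gpr89, a multi-pass protein of the Golgi, had 395 to 457, 256 to 317 and 202 to 217 (1.05 ± 0.12, adjusted p = 8.8e-06).

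The 8 multi-pass proteins of inner membranes or of uncertain receptor function gave 2, 5 and 4 calls (25, 62.5 and 50%, beside 45.8, 38.2 and 48.1% of all genes), none of them with a fold of 5. Gpr107 had 1124 to 1408 normalized counts over all 10 libraries and was called in no comparison. Gpr108 had 867 to 1189 and was called for LN-LEC over LN-BEC (log2 fold change -0.25 ± 0.09, edgeR adjusted p = 0.045) and for LN-BEC over D-LEC (0.31 ± 0.10, adjusted p = 0.02). Both calls were lost without LN-BEC replicate 2 (adjusted p = 0.17 and 0.082) or replicate 3 (0.13 and 0.063). Each was also lost under further alternatives, among them fitting only the populations compared (adjusted p = 0.051 in each). Gpr137b, a lysosomal membrane protein, had 1249 to 1417 in LN-BEC and 1854 to 2538 in the lymphatic libraries. It is uncertain in level, since 47.4% of its 50-base exon windows have a copy in Gpr137b-ps and fragments that map to several places were not counted.

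The 13 members that were not tested were Gpr6, Gpr12, Gpr15, Gpr26, Gpr27, Gpr33, Gpr50, Gpr83, Gpr101, Gpr139, Gpr142, Gpr149 and Gpr158. Of the constitutively active receptors that raise cyclic AMP, Gpr3 alone was tested and was called once, with LN-BEC above LN-LEC. Of the 3 class C orphans, 2 were tested and neither passed the threshold in edgeR. Levels under 3 counts in a library were not detectable at these depths.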

How the data were processed

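RNA from sorted LN-LEC, LN-BEC and D-LEC pools was amplified with the Ovation RNA-Seq V2 kit. The deposited values are whole-number counts per gene: after trimming (Fastx-trimmer) and STAR alignment against mm9, the authors ran featureCounts 1.4.4, ignoring strand and leaving out fragments that map to several places or genes. Overlapping genes can therefore not be told apart by strand.

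From these counts, all 10 libraries were fitted in edgeR 4.0.16 (R 4.3.3; TMM scaling, robust quasi-likelihood F test, 1 mean per population). Genes needed a mean normalized count of 1 in some population, and 3804 rows of unnamed transcripts were left out. Normalized counts were divided by DESeq2 1.42.0 size factors. FPKM used the deposited exon lengths. Adjusted p-values are Benjamini-Hochberg over 15330 genes. Values are given for members called with a fold of at least 5 and a mean of at least 20 normalized counts in their highest population, for the 10 with the highest FPKM, and for tested adhesion and proton-sensing members; others are marked where named. Figures were drawn with matplotlib 3.10.9. The symbol rule and the gene lists were set with earlier results of these data known, so the call shares of these lists are description only. Libraries totalled 22429940 to 48906070 counts, and counting intervals (95%) and the floor of 3 counts cover counting error only. A ratio given with such an interval divides counts summed over libraries by summed TMM-scaled library sizes, and is not the edgeR fold. Replicate numbers follow accession order and only name libraries. The fit was tested on simulated data. Alternatives were DESeq2, its size factors, no filter, fitting only the populations compared, and leaving out each library. Some genes are not reported here.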

Additional observations from a re-analysis of the deposited data

Results flagged for a closer look

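In LN-LEC, 30 Gpr-named genes were checked for a library far from the other 3, and 1 had one by Dixon's criterion. Chance alone marks about 1 in 20 groups. Gpr176 had 23.8 normalized counts in LN-LEC replicate 3 while the others had 35.6 to 36.5.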

How the results depend on the processing

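Of 73 called gene comparisons checked, 13 lost their call under at least 1 alternative. Leaving out LN-BEC replicate 3 and LN-LEC replicate 4 together was chosen after seeing the data. The sign turned in 2 comparisons that had not been called: Gpr146 for LN-LEC over LN-BEC was 0.03 on the log2 scale without LN-BEC replicate 3 (-0.06 with it; -0.11 to 0.03 over the fits without 1 library), and Gpr116 for LN-LEC over D-LEC was -0.00 with that pair left out (0.22 with it). The cause was not tested. The counts of called members stayed within 1.5 times the values given under every alternative run. No paired analysis was possible because the labels give no shared replicate numbers. Depth limits genes with few counts, such as Gpr17, Gpr25 and Gpr30, whose intervals are wide.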
